A study of Mus musculus with 33 samples.

Results

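The 10 genes described here are 9 genes of glucose uptake and glycolysis (Slc2a3, Hk1, Hk2, Pfkl, Aldoa, Pgk1, Eno1, Pkm and Ldha) and the oxygen sensor gene Egln3, followed through sorted mouse endothelial cells. They were selected by name, as the rows of the gene expression table with these symbols, 10 of 25239 genes. RNA was sequenced from 13 libraries in 7 groups. Endothelial cells were sorted as CD41-, CD45- and Ter119-negative cells positive for CD31 and VE-cadherin (VEC), with low or positive cKIT, from whole embryos at embryonic day 9.5 (E9.5), from E13.5 fetuses taken whole, and from adult livers at 4 to 6 weeks. Cells labelled +1Runx1 carried Cre and 1 copy of a conditional allele written CKI (Cre; CKI/+), and those labelled +2Runx1 carried Cre and 2 copies (Cre; CKI/CKI); the labels name them for added Runx1, a transcription factor needed for endothelial cells to form blood. Ctrl cells carried CKI without a named Cre, as CKI/+ at E9.5 and as CKI/CKI or CKI/+ at E13.5 and in liver, so Cre and added Runx1 cannot be told apart. The strain was C57BL/6J-129Sv/J at E13.5 and in liver and C57BL/6J-129Sv/J x B6C3F1 at E9.5, where females were superovulated. Tamoxifen (2 mg) was injected 24 h before harvest of embryos and fetuses and given by gavage to adults, and the labels name no driver for Cre. Each group had 2 libraries, except E13.5 Ctrl with 1. The labels do not say whether libraries came from separate litters or animals, so a p-value here reflects the spread among the libraries alone, which may be technical.

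Glycolysis splits glucose into pyruvate and yields ATP without oxygen. Glucose enters the cell through facilitative transporters, is trapped by hexokinase, is committed by phosphofructokinase, and is cut, oxidised and rearranged until pyruvate kinase releases pyruvate, which lactate dehydrogenase can turn into lactate. Endothelial cells are known for making much of their ATP this way. When oxygen falls, the prolyl hydroxylases stop marking the HIF alpha subunits for destruction, and HIF, bound to its partner Arnt at short DNA words with the core ACGTG or GCGTG, turns on most glycolytic genes. Egln3 encodes 1 of these hydroxylases and is itself a HIF target, so its transcript is often read as a marker of HIF activity.

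The promoters differ in how many such cores they carry, and 4 are printed because they belong to genes whose levels are compared below and span the range from 1 core to a cluster. Each line gives the 250 bases before a RefSeq gene start (GRCm38.p6), 5′ to 3′ on the strand of the gene, in lower case, with the core ACGTG and the variant core GCGTG in capitals, as well as the reverse complement of each (CACGT for the first and CACGC for the second). Ldha (chr7:46845554-46845803, plus strand), Pgk1 (chrX:106186850-106187099, plus strand), Hk2 (chr6:82774455-82774704, minus strand) and Egln3 (chr12:54203875-54204124, minus strand) read as follows.
Ldha: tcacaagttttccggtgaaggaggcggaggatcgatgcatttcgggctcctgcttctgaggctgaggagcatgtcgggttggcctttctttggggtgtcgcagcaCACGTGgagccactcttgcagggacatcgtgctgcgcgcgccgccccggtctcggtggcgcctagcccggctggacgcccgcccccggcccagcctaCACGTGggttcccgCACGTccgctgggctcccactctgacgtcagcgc
Pgk1: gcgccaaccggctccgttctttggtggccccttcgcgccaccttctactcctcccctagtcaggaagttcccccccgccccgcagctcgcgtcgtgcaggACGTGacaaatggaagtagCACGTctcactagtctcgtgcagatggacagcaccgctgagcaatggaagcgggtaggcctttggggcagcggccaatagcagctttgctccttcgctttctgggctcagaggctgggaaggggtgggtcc
Hk2: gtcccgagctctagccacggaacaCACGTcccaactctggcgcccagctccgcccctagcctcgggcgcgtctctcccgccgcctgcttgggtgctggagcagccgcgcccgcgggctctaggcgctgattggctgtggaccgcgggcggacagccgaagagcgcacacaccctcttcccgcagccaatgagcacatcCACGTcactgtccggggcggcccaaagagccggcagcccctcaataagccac
Egln3: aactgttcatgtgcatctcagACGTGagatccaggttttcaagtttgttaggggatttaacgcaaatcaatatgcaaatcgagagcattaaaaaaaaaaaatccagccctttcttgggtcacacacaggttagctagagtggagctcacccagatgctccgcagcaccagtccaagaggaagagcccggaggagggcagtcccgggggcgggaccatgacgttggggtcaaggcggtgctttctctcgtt

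In windows of 300 bases (250 before to 50 after the start), searched on both strands, Ldha held 7 matches, among them 2 copies of the palindrome CACGTG, each of which counts once on either strand. Hk1 held 5 at its inner start, the 3 listed starts of Eno1 held 2 each, Hk2 and Pgk1 held 2, and Pfkl and Egln3 held 1. Pkm held none at its first start and 2 at its second, and Aldoa held none, 1 and 1 at its 3 starts. Of 12467 promoters of tested genes, 61.5% held at least 1 core and 33.4% at least 2, so a match is common. At least 2 CACGTG words, as at Ldha, were present in 1.01% of them. The RUNX words TGTGGT and TGCGGT, on either strand, occurred in 20.6% of these promoters, and among the 10 genes once in the window of Hk2 and once in that of the inner start of Hk1. The RefSeq table held promoters for 9 of the 10 genes; Slc2a3 had none.

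The libraries held 37754246 to 44540403 reads assigned to genes, recovered from the steps of the deposited values, with 10779 to 11355 genes at 1 RPKM or more. RPKM scales reads by gene length and library depth, so levels can be compared between genes. Runx1 itself was higher in each group with added Runx1 than in the Ctrl of its stage. It stood at 0.910 ± 0.00755 RPKM (SD, n = 2) in E9.5 Ctrl against 15.6 ± 0.903 in 1Runx1. At E13.5 it read 1.37 in the Ctrl library, 26.3 ± 3.65 in 1Runx1 and 23.9 ± 1.75 in 2Runx1, so it did not follow the copy number there. In liver it was 1.36 ± 0.245 in Ctrl against 78.2 ± 0.173 in 2Runx1. Summed RPKM of 10 endothelial markers lay between 1496 and 4494 in every library, and Ptprc, which encodes CD45, was at 0 in all 4 E9.5 libraries. Hepatocyte and macrophage genes were also present, most at E13.5 and in liver, as were erythroid genes, most at E13.5. Those that moved stand beside the comparisons below. All tests used limma on log2(RPKM + 1) over 12546 genes with Benjamini-Hochberg adjustment, and a gene was called at an adjusted p under 0.05. Differences are on that log2 scale, which understates changes of low genes, with ± for the standard error of the fit.

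**Figure D1:**
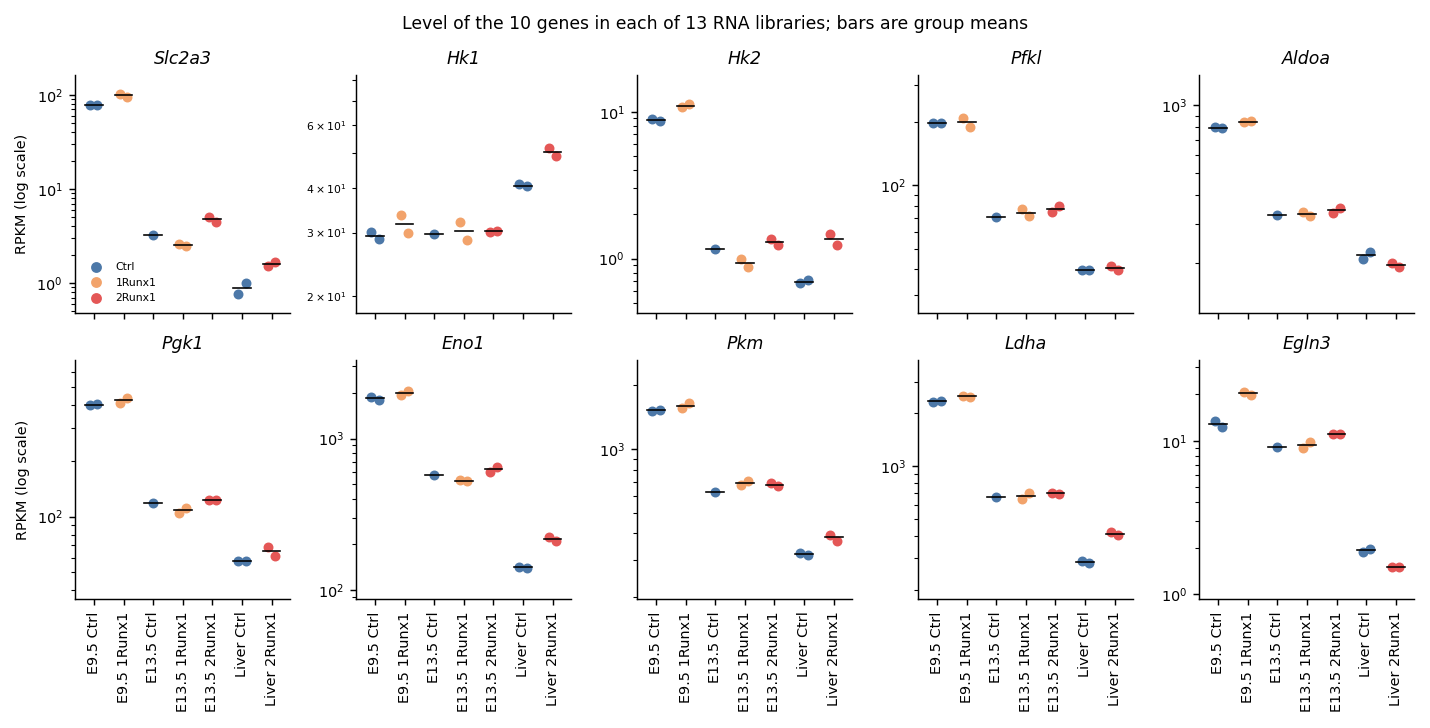
RPKM (log axis) of each of the 10 genes in every RNA library, by group on the horizontal axis, with bars at group means. For 9 of the genes the E9.5 libraries lie highest, and among Ctrl libraries those of liver lie lowest; for Hk2 the liver 2Runx1 libraries, at 1.48 and 1.23 RPKM, lie above E13.5 Ctrl and 1Runx1. Hk1 is near 30 RPKM in embryonic and fetal cells and above 40 in liver.

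Gene positions below are those of GRCm38. The largest differences between the groups lay between the stages. In control cells 9 of the 10 genes were lower at E13.5 than at E9.5 and all of these were lower again in adult liver, while Hk1 did not pass the test between E9.5 and E13.5 and was higher in liver. At E9.5 the lower pathway was among the most abundant RNA of the cells: by mean RPKM over all 25239 genes, Ldha ranked 3, Eno1 4, Pkm 9 and Aldoa 30 in E9.5 Ctrl. In liver Ctrl the ranks of Ldha, Eno1, Pkm and Aldoa were 218, 546, 197 and 321. The 10 genes together made up 1.82% and 1.81% of all summed RPKM in the E9.5 Ctrl libraries, 0.659% in E13.5 Ctrl, and 0.239% and 0.237% in liver Ctrl.

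Slc2a3 (ENSMUSG00000003153, chr6:122727809-122802363) encodes GLUT3, a high-affinity glucose transporter. It stood at 78.5 and 77.4 RPKM in the E9.5 Ctrl libraries, at 3.26 in E13.5 Ctrl, and at 0.765 and 0.987 in liver Ctrl. The 3 groups did not overlap, and the ratio of means was 23.9 between E9.5 and E13.5 and 89.0 between E9.5 and liver. It fell by 4.21 ± 0.10 from E9.5 to E13.5 (adjusted p = 2.26e-09), the largest difference among the 10 genes. Slc2a1, which encodes GLUT1, the basal transporter of endothelium and a marker of the blood-brain barrier, kept 280 RPKM in E13.5 Ctrl against 432 and 422 in E9.5 Ctrl, and held 4.84 and 3.85 in liver Ctrl. Slc2a1 was therefore 5.51 and 5.44 times the level of Slc2a3 in E9.5 Ctrl, 86.0 times in E13.5 Ctrl, and 6.33 and 3.9 times in liver Ctrl.

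Hexokinase makes glucose 6-phosphate. Hk1 (ENSMUSG00000037012, chr10:62268855-62379920, minus strand), the form found in most tissues, read 30.1 and 28.8 RPKM in E9.5 Ctrl, 29.8 in E13.5 Ctrl, and 40.9 and 40.4 in liver Ctrl. The E13.5 value fell between those of E9.5 (difference 0.02 ± 0.08, adjusted p = 0.900), and both liver libraries were above every other Ctrl library (0.45 ± 0.07 above E9.5). Hk2 (ENSMUSG00000000628, chr6:82725025-82774454, minus strand), the inducible form, read 8.93 and 8.70 RPKM in E9.5 Ctrl, 1.16 in E13.5 Ctrl, and 0.680 and 0.714 in liver Ctrl. These 3 groups did not overlap, and Hk2 fell by 2.19 ± 0.10 between E9.5 and E13.5 (adjusted p = 1.54e-07). The ratio of Hk1 to Hk2 was 3.37 and 3.31 in E9.5 Ctrl, 25.8 in E13.5 Ctrl, and 60.2 and 56.5 in liver Ctrl. The step of Hk2 from E13.5 to liver, where both levels are near 1 RPKM, was −0.35 (adjusted p = 0.00941), and with quantile normalization −0.07 (adjusted p = 0.55).

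The middle enzymes fell by similar amounts. Pfkl (ENSMUSG00000020277, chr10:77986947-78009807, minus strand), the liver-type subunit of phosphofructokinase, read 197 and 198 RPKM in E9.5 Ctrl, 70.7 in E13.5 Ctrl, and 39.7 and 39.6 in liver Ctrl. Aldoa (ENSMUSG00000030695, chr7:126795234-126800994, minus strand), the aldolase that cuts the 6-carbon sugar, read 801 and 792, then 328, then 210 and 225. Pgk1 (ENSMUSG00000062070, chrX:106187100-106203699, plus strand), the kinase that makes the first ATP of the pathway, read 402 and 403, then 118, then 58.0 and 57.8. In each case the 3 Ctrl groups were separate, and the differences from E9.5 to E13.5 were −1.47, −1.28 and −1.76 for Pfkl, Aldoa and Pgk1 (adjusted p = 2.56e-07, 1.4e-07 and 5.97e-08).

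The last steps carried the highest levels in embryonic and fetal Ctrl cells, while in liver Ctrl Eno1 lay below Aldoa. Eno1 (ENSMUSG00000063524, chr4:150236708-150248879, plus strand), enolase, read 1880 and 1805 RPKM in E9.5 Ctrl, 570 in E13.5 Ctrl, and 142 and 140 in liver Ctrl. Pkm (ENSMUSG00000032294, chr9:59656576-59679372, plus strand), the pyruvate kinase gene whose splice forms M1 and M2 are not separated in a gene table, read 1520 and 1537, then 627, then 323 and 315. Ldha (ENSMUSG00000063229, chr7:46842274-46855627, plus strand), the lactate dehydrogenase subunit that favours lactate formation, read 2317 and 2350, then 671, then 289 and 284. Eno1 was thus 13.1-fold lower in liver than at E9.5 (ratio of means), against 8.14-fold for Ldha and 4.79-fold for Pkm. The order of these 3 genes changed with stage: Ldha and Eno1 were above Pkm at E9.5, whereas in liver Ctrl Pkm was above Ldha, and both Eno1 libraries were lowest.

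Ldhb, the lactate dehydrogenase subunit typical of tissues that burn lactate, moved the other way. It read 9.21 and 9.03 RPKM in E9.5 Ctrl, 26.7 in E13.5 Ctrl, and 65.4 and 67.6 in liver Ctrl, with a difference of 1.45 ± 0.11 from E9.5 to E13.5 (adjusted p = 4.05e-06). Its share of summed Ldha and Ldhb RPKM was 0.396% and 0.383% in E9.5 Ctrl, 3.82% in E13.5 Ctrl, and 18.4% and 19.2% in liver Ctrl. Ldha remained the more abundant subunit gene in all 13 libraries.

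**Figure D2:**
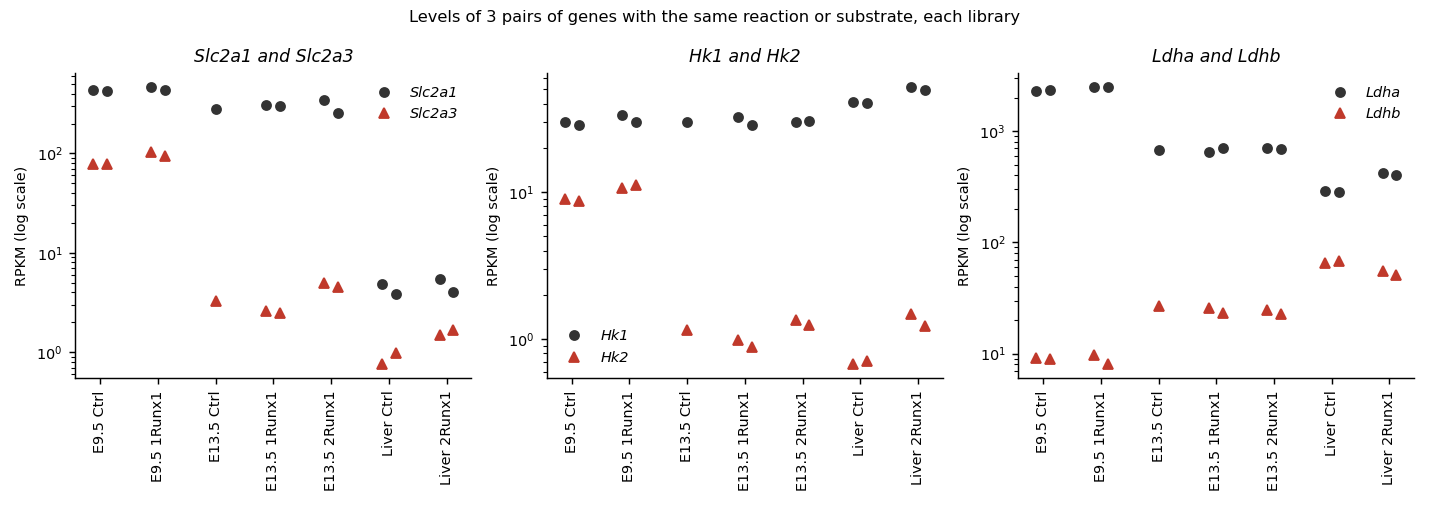
RPKM (log axis) of Slc2a1 with Slc2a3, Hk1 with Hk2, and Ldha with Ldhb, 1 point per library, by group on the horizontal axis. Slc2a3 and Hk2 drop between E9.5 and E13.5 by ratios of 23.9 and 7.63, Slc2a1 by 1.52 and Hk1 does not, and Ldhb lies highest in liver, where Ldha lies lowest.

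Egln3 (ENSMUSG00000035105, chr12:54178981-54203874, minus strand), the hydroxylase gene, ranked 5248 of 25239 genes by mean RPKM in E9.5 Ctrl and 9915 in liver Ctrl. It read 13.4 and 12.3 RPKM in E9.5 Ctrl, 9.09 in E13.5 Ctrl, and 1.90 and 1.96 in liver Ctrl. The E13.5 library was below both E9.5 libraries, by 0.46 ± 0.09 (adjusted p = 0.00173), and the liver libraries were lower by a further 1.78. Of the 10 genes, 0 rose and 9 fell at E13.5 against E9.5, where 48.8% of all tested genes were called, 22.3% higher and 26.4% lower (median of the 10 genes −1.58, of all genes −0.02). Liver against E13.5 gave 1 higher and 9 lower, with 79.3% of all genes called (40.6% higher, 38.6% lower), and liver against E9.5 likewise 1 and 9, with 85.4% called (42.7% in each direction). At such shares a call alone says little, and the sizes carry the description: the medians of the 10 genes were −0.996 and −2.41, against 0.02 and −0.01 for all genes. Strain and mating scheme differ between E9.5 and the 2 later stages, and organ and the route of tamoxifen between liver and the 2 earlier ones. These cannot be told apart from age in the comparisons concerned. In bulk samples fewer cells of a type and less RNA per cell cannot be told apart either. The fit gives the lone E13.5 Ctrl library the spread of the other groups. Proliferation genes moved alongside, with 10 of 12 lower at E13.5 than at E9.5 (summed RPKM 1254 to 1258, then 848) and 12 of 12 lower in liver (118 to 120). Macrophage genes had a summed RPKM of 1.05 to 1.27 at E9.5, 21.6 at E13.5 and 186 to 192 in liver, and hepatocyte genes one of 19.1 to 20, then 256, then 151 to 163. Erythroid genes went from 93.6 to 94.5 at E9.5 to 1174 at E13.5 and 35.5 to 37.1 in liver. Brain endothelial genes, Slc2a1 among them, had a summed RPKM of 497 to 505 at E9.5, 466 at E13.5 and 64.3 to 69.8 in liver. Of these 9 genes 7 were called higher at E13.5 than at E9.5 (median of the list 1.59) and 2 lower, Lef1 and Slc2a1. In liver 9 of 9 were lower than at E13.5. Mesenchymal genes had a summed RPKM of 27.2 to 27.3 at E9.5, 85.3 at E13.5 and 72.8 to 73.4 in liver. Of 7 tested, 5 were called higher and 1 lower at E13.5 than at E9.5. From E13.5 to liver 6 were called lower (median of the list −1.67) and 1, Dcn, higher. The part of these gene lists in the fall of the glycolytic genes was not tested.

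The other genes of the pathway, from lists chosen by function, were mixed between stages. Of 20 further glycolytic and lactate genes tested, 5 were higher and 12 lower at E13.5 than at E9.5, among them the lactate exporter gene Slc16a3 (−2.87, from 106 and 101 RPKM to 13.3), Pklr (1.61), the liver and red cell pyruvate kinase gene, and Eno1b (−4.73). Gapdh (−1.11), Tpi1 (−1.27) and Pgam1 (−1.46), the remaining enzymes between aldolase and enolase, fell with the 9 genes. Of 10 genes of pyruvate entry into mitochondria 6 rose and 2 fell, with Pdk1, a HIF-induced kinase that blocks this entry, at −2.03, and Pdk2 at 1.46, Mpc2 at 0.52 and Pdk4 at 0.49. Of 6 pentose phosphate genes 1 rose (Taldo1, 0.24) and 3 fell (G6pdx, −0.51, Tkt, −0.42, and Pgd, −0.42).

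The oxygen sensing genes were mixed between stages. Hif1a, the HIF alpha subunit most tied to glycolysis, read 62.2 and 61.9 RPKM in E9.5 Ctrl, 58.8 in E13.5 Ctrl, and 47.6 and 44.4 in liver Ctrl, a difference of −0.08 from E9.5 to E13.5 (adjusted p = 0.400) and −0.42 from E9.5 to liver (adjusted p = 3.54e-05). Epas1, which encodes the endothelial HIF alpha subunit HIF2, rose at each step, from 23.4 and 23.0 RPKM to 35.6 and then to 96.3 and 96.5 (0.60 and 1.41). Egln1, the main hydroxylase, read 28.6 and 29.3, then 26.0, then 24.4 and 23.9 RPKM, a difference of −0.15 from E9.5 to E13.5 (adjusted p = 0.116) and −0.25 from E9.5 to liver (adjusted p = 0.0023). Of the 8 sensing genes tested 3 rose and 1 fell between E9.5 and E13.5: Hif1an (−0.76), which encodes the asparagine hydroxylase of HIF, Epas1, Hif3a (0.47) and Vhl (0.25). Of 23 further HIF target genes 4 rose and 9 fell, with Ak4 (−2.27) and Bnip3 (−1.96) lower and Ndrg1 (1.70) and Lox (1.64) higher. Vegfa, the angiogenic growth factor gene, read 9.26 and 10.0 RPKM in E9.5 Ctrl, 5.19 in E13.5 Ctrl, and 8.62 and 8.52 in liver Ctrl, so that it fell by 0.78 and then rose by 0.63. Between liver and E9.5 the sensing list gave 3 higher (Epas1, Arnt and Egln2) and 4 lower (Hif1a, Hif3a, Egln1 and Hif1an), and the target list 7 higher and 12 lower, led by Ndrg1 (4.66), Ak4 (−3.89), Apln (−3.30) and Bhlhe40 (2.90).

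Across all 13 libraries the profiles were alike for 9 of the genes. Hk1, not called between E9.5 and E13.5 Ctrl and higher in liver, correlated negatively with each of them. Pearson correlations of log2(RPKM + 1) ran from 0.66 (Hk2 with Egln3) to 1.00 (Pfkl with Aldoa, 0.996) among the 36 pairs without Hk1, and from −0.88 (with Egln3) to −0.37 (with Hk2) in the 9 pairs with it. These 13 points share the stage steps, so the values describe those steps. The most similar gene among all tested was Pgam1 for both Eno1 (0.999) and Pkm (0.997), Aldoa for Pfkl (0.996), Grhpr for Aldoa (0.996), Arid3b for Pgk1 (0.996), Utp15 for Ldha (0.995), Prtg for Slc2a3 (0.994), Blmh for Egln3 (0.992), Etv2 for Hk2 (0.991) and Clptm1l for Hk1 (0.979).

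At E9.5, 1 of the 10 genes passed the test with added Runx1, and it was Egln3. Egln3 read 13.4 and 12.3 RPKM in Ctrl and 20.9 and 19.7 in 1Runx1. The groups did not overlap, and Egln3 rose by 0.62 ± 0.07 (adjusted p = 0.00215), 1.58 times in RPKM, against 0.861% of all tested genes called higher, 0.327% called lower and 1.19% in either direction. Slc2a3 read 78.5 and 77.4 RPKM in Ctrl against 103 and 95.2 in 1Runx1 (0.34 ± 0.08, adjusted p = 0.0893), and Hk2 8.93 and 8.70 against 10.7 and 11.2 (0.28 ± 0.08, adjusted p = 0.195). Both were separate between the groups without passing over all genes. With limma-voom on recovered reads all 3 were called (adjusted p = 0.0103 for Slc2a3 and 0.0424 for Hk2), whereas with only the E9.5 libraries in the fit Egln3 was at adjusted p = 0.0574 and no member was called.

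The 7 other genes differed by 0.02 to 0.12 at E9.5, and the fitted differences of all 10 genes were above 0 (median 0.10, of all genes 0.01), although with quantile normalization those of Pkm, Aldoa and Pfkl were below 0. Ldha, at 2317 and 2350 RPKM in Ctrl and 2488 and 2474 in 1Runx1, had a 95% interval of −0.01 to 0.19. None of the 10 pyruvate entry, 6 pentose phosphate, 8 oxygen sensing and 23 HIF target genes was called. Vegfa was closest, at 9.26 and 10.0 RPKM in Ctrl and 12.4 and 12.2 in 1Runx1 (0.32, adjusted p = 0.0649), while Hif1a (0.09), Epas1 (−0.10), Egln1 (0.12) and Slc2a1 (0.07) had adjusted p of 0.612, 0.661, 0.463 and 0.912. Proliferation genes gave 0 calls of 12. Of the marker genes of other cells Trf, a hepatocyte marker, rose by 0.81 and Lyz2, a macrophage marker, by 0.53 (adjusted p = 0.0401), and the brain endothelial gene Apcdd1 and the endothelial gene Tek were lower. Trf was the 1 gene called of 10 hepatocyte genes and Lyz2 the 1 of 9 macrophage genes, and the medians of these lists were −0.02 and 0.02. Summed RPKM of hepatocyte genes was 19.1 to 20 in Ctrl and 32.1 to 34.9 in 1Runx1, and that of macrophage genes 1.05 to 1.27 and 1.51 to 1.94. Their part in the result was not tested. The count of all called genes at E9.5, 149, was 41 to 89 with 1 library left out (89 without 1Runx1 replicate 1, 52 without 1Runx1 replicate 2, 46 without Ctrl replicate 1 and 41 without Ctrl replicate 2).

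**Figure D3:**
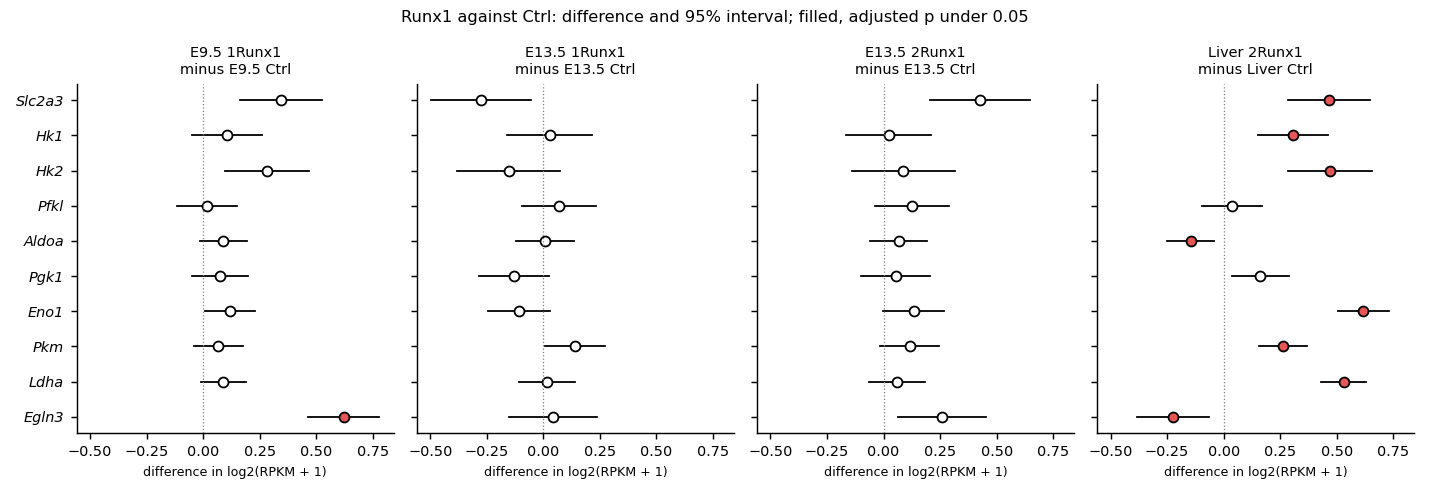
Difference in log2(RPKM + 1) between Runx1 and Ctrl cells for each gene (vertical axis), with its 95% interval, in the 4 comparisons with Ctrl; filled points passed the test at an adjusted p under 0.05. Egln3 is the filled point at E9.5, the E13.5 panels have none, and in liver 6 filled points lie above 0 and 2 below.

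At E13.5, 0 of the 10 genes passed with 1 added copy or with 2, both set against the same single Ctrl library. With 1 copy 10.4% of all tested genes were called (6.34% higher and 4.03% lower), and with 2 copies 0.271% (0.151% higher and 0.12% lower). The latter, 34 genes, became 256 without 2Runx1 replicate 1 and 111 without 2Runx1 replicate 2. The fits with only the libraries of each comparison called 0 genes of any kind in both (1866 and 631 genes at an unadjusted p under 0.05). Slc2a3 read 3.26 RPKM in Ctrl, 2.58 and 2.47 in 1Runx1, and 4.97 and 4.5 in 2Runx1. Ctrl lay between the 2 Runx1 groups, with differences of −0.28 ± 0.10 (adjusted p = 0.105) and 0.43 ± 0.10 (adjusted p = 0.125).

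Egln3, which rose at E9.5, read 9.09 RPKM in E13.5 Ctrl, 8.93 and 9.87 in 1Runx1, and 11 and 11.1 in 2Runx1. The Ctrl value fell within the 1Runx1 range (0.04, 95% interval −0.15 to 0.24) and below both 2Runx1 libraries (0.26, interval 0.06 to 0.45, adjusted p = 0.259). The enzymes moved little: Pgk1 read 118 RPKM in Ctrl, 105 and 112 in 1Runx1, and 123 in both 2Runx1 libraries, and Ldha 671, then 653 and 703, then 702 and 697. For Ldha the 95% intervals were −0.11 to 0.14 with 1 copy and −0.06 to 0.18 with 2. The medians over the 10 genes were 0.01 with 1 copy and 0.10 with 2, against 0.02 for all genes in both comparisons.

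The composition markers differed more at E13.5 than these genes did. In 1Runx1 against Ctrl 7 of 10 hepatocyte genes were lower and 1 higher (summed RPKM 256 in Ctrl, 201 and 205 in 1Runx1), 5 of 8 erythroid genes lower (1174, then 462 to 574), 5 of 9 macrophage genes lower and 5 of 9 brain endothelial genes higher (466, then 604 to 659). Also lower were 3 of 5 neutrophil genes (34.5, then 6.81 to 13.9) and 2 of 4 megakaryocyte genes (31.4, then 13.6 to 20.8). Of 12 proliferation genes 1 was lower, Mki67, and of 7 mesenchymal genes 1, Pdgfra. In 2Runx1 against Ctrl 2 of 8 erythroid genes, 1 of 10 hepatocyte genes and 1 of 9 macrophage genes were lower, with 0 higher in these lists. The part of all these genes in the results was not tested. Of the related lists, 1 of 20 glycolytic genes rose with 1 copy (Eno1b, 3.67) and 3 fell, among them Slc16a3 (−0.80) and Pklr (−0.57), Mpc1 (0.37) and Taldo1 (0.20) rose, and of 23 HIF targets 3 rose (Angptl4 0.96, Ndrg1 0.49, Car9 0.44) and 2 fell, Lox (−0.52) among them. With 2 copies 1 gene of the 5 lists was called, Pklr (−0.75). Hif1a, Epas1, Egln1, Vegfa and Slc2a1 were called in neither comparison with Ctrl.

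Set directly against each other, the 2 Runx1 doses at E13.5 differed in Slc2a3 and, as counted, in Eno1. Slc2a3 was higher in 2Runx1 than in 1Runx1 by 0.70 ± 0.08 (adjusted p = 0.00151), or 1.88 times in RPKM, with no overlap. Eno1 read 530 and 527 RPKM in 1Runx1 and 603 and 648 in 2Runx1, a difference of 0.24 ± 0.05 (adjusted p = 0.024). Of the 10 genes 2 were thus higher and 0 lower, where 5.33% of all genes were called, 2.17% higher and 3.16% lower (median of the 10 genes 0.12, of all genes −0.01). With only the E13.5 Runx1 libraries in the fit neither passed (Slc2a3 adjusted p = 0.244). Eno1 also lost its call without the filter, with quantile normalization (adjusted p = 0.0856), without either 1Runx1 library or without 2Runx1 replicate 2, and passed in 4 of 11 alternative fits, while Slc2a3 passed in 9 of 10. Hk2 (0.24, adjusted p = 0.12), Egln3 (0.21, adjusted p = 0.111) and Pgk1 (0.18, adjusted p = 0.0883) were also higher in both 2Runx1 libraries than in either 1Runx1 library without passing; Pgk1 passed with quantile normalization (adjusted p = 0.0272). Among related genes Slc16a3 (0.75), Ak4 (0.69) and Vegfa (0.39, adjusted p = 0.0148) were higher, and Eno1b (−3.50), Angptl4 (−0.77) and Ndrg1 (−0.40) lower. Hepatocyte genes were higher too, 6 of 10, as were 3 of 9 macrophage genes (C1qc, Csf1r and Lyz2) and Pdgfra of the mesenchymal list, and 2 of 9 brain endothelial genes (Lef1 and Slc7a5) were lower. Their part was not tested. Runx1 itself did not separate the 2 doses (26.3 ± 3.65 and 23.9 ± 1.75 RPKM).

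The call of Eno1 between the E13.5 doses did not stand when the reads of a near-identical gene were added. Eno1b is a retrotransposed copy of Eno1 elsewhere in the genome, so the counting could assign reads of one to the other. Eno1b held 198 reads in E13.5 Ctrl, 3438 and 3572 in 1Runx1, and 212 and 211 in 2Runx1. As a share of Eno1 plus Eno1b reads this was 0.398% in Ctrl, 6.99% and 7.29% in 1Runx1, and 0.423% and 0.433% in 2Runx1. The sum of both, not scaled for library depth, was 49803 reads in Ctrl, 49156 and 48968 in 1Runx1, and 50151 and 48697 in 2Runx1. With the Eno1b reads added to Eno1, the 1Runx1 libraries moved to 570 and 568 RPKM and 2Runx1 to 605 and 651. This alternative was chosen after the values were seen. Both 2Runx1 libraries stayed above both 1Runx1 libraries, and the difference was 0.14 ± 0.05 (adjusted p = 0.127), no longer a call. The same addition moved the 1Runx1 difference from Ctrl from −0.11 to −0.01.

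Eno1b also held a share of several percent at E9.5, 4.36% and 4.52% in Ctrl and 3.63% and 3.52% in 1Runx1, and 0.394% to 0.505% in the 4 liver libraries. The shares fall into high groups (both E9.5 groups and E13.5 1Runx1) and low groups, with no library between 0.505% and 3.52%. The liver call of Eno1 and its fall with stage stood with the reads added (liver 0.62, adjusted p = 8.68e-06, and −1.75 from E9.5 to E13.5).

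**Figure D4:**
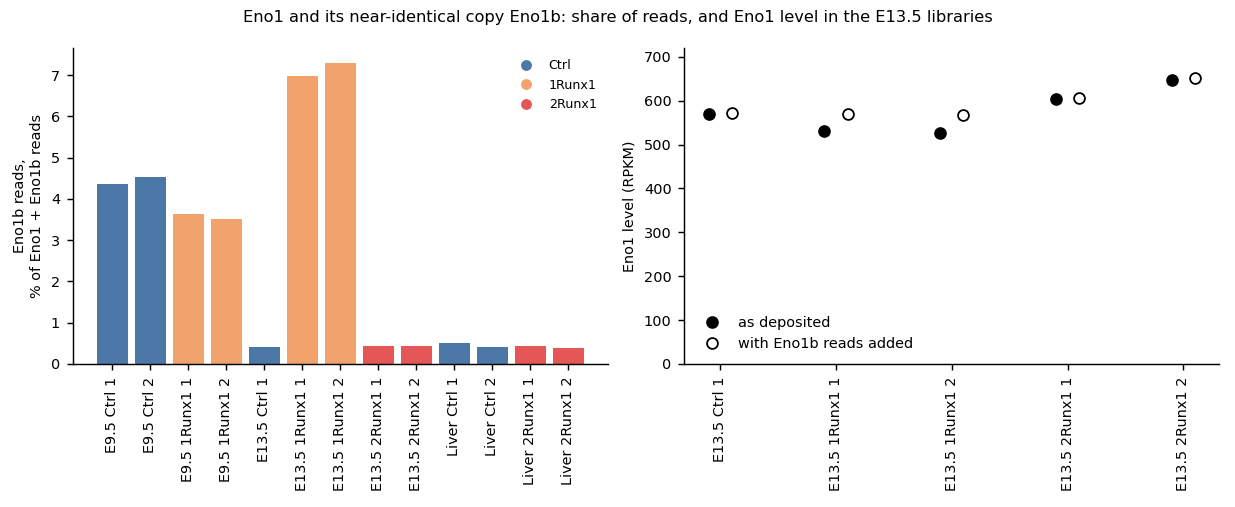
Left, Eno1b reads as a percent of Eno1 plus Eno1b reads in each RNA library; right, Eno1 RPKM in the 5 E13.5 libraries as deposited and with the Eno1b reads added. The 2 1Runx1 libraries at E13.5 stand at 6.99% and 7.29% against 0.398% to 0.433% in the other 3, and adding the reads brings them from 530 and 527 to 570 and 568 RPKM.

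In adult liver 2 added copies went with higher levels of 6 of the 10 genes and lower levels of 2, where 17.1% of all tested genes were higher and 8.14% lower (25.3% in either direction). Eno1 read 142 and 140 RPKM in Ctrl and 222 and 212 in 2Runx1, and rose by 0.62 ± 0.05 (adjusted p = 8.94e-06). Ldha read 289 and 284 RPKM in Ctrl and 423 and 406 in 2Runx1, and rose by 0.53 ± 0.05 (adjusted p = 1.23e-05). Neither gene overlapped between the groups, and in RPKM they were 1.54 and 1.45 times higher. Both stood as calls in every alternative fit.

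The entry steps rose from low levels. Slc2a3 read 0.765 and 0.987 RPKM in liver Ctrl and 1.5 and 1.67 in 2Runx1 (0.46 ± 0.08, adjusted p = 0.00189). Hk2 read 0.680 and 0.714 in Ctrl and 1.48 and 1.23 in 2Runx1 (0.47 ± 0.08, adjusted p = 0.00208). These were ratios of 1.81 and 1.94 in RPKM, larger than that of Eno1, but at 1 to 2 RPKM the pseudocount of 1 compresses them; with a pseudocount of 0.1 the differences were 0.80 and 0.86. Even so, Slc2a3 in liver 2Runx1 stayed far under the 78.5 and 77.4 RPKM of E9.5 Ctrl. Hk1, at 40.9 and 40.4 RPKM in Ctrl and 51.8 and 49.2 in 2Runx1, rose by 0.31 ± 0.07 (adjusted p = 0.00833), so both hexokinase genes were higher and their ratio was 35 and 40.1 in place of 60.2 and 56.5.

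Pkm, at 323 and 315 RPKM in Ctrl and 395 and 370 in 2Runx1, rose by 0.26 ± 0.05 (adjusted p = 0.00264). Pgk1 read 58.0 and 57.8 against 68.5 and 61.5 (0.16 ± 0.06, adjusted p = 0.0594), and Pfkl 39.7 and 39.6 against 41.6 and 39.8 (0.04, 95% interval −0.10 to 0.17, adjusted p = 0.739). Aldoa moved the other way, from 210 and 225 RPKM to 200 and 193 (−0.15 ± 0.05, adjusted p = 0.0443). Egln3 was lower as well, 1.90 and 1.96 RPKM in Ctrl and 1.5 and 1.51 in 2Runx1 (−0.23 ± 0.07, adjusted p = 0.0419). The last 2 calls were weak: Aldoa passed in 4 and Egln3 in 3 of 10 alternative fits, and for Hk1 8 of 10 passed. Adjusted p over the alternatives reached 0.257 for Aldoa, 0.201 for Egln3 and 0.0702 for Hk1. Without liver Ctrl replicate 2 or without liver 2Runx1 replicate 1 the count was 5 genes in place of 8, all 5 higher, since Hk1, Aldoa and Egln3 did not pass.

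The median of the 10 differences in liver was 0.28, against 0.02 for all genes. As a share of all summed RPKM the 10 genes rose from 0.239% and 0.237% to 0.301% and 0.288%, above liver Ctrl and below the 0.659% of E13.5 Ctrl. Among all called genes 67.8% were higher, a share that was 54.5% with quantile normalization and 56.6% with limma-voom.

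Other genes of the pathway were split in liver. Of 20 further glycolytic genes 4 rose, Pgam1 (0.43, 25.4 and 25.2 against 35.5 and 33.2 RPKM), Pfkp, Gapdh and Eno1b, and 4 fell, among them the lactate transporter gene Slc16a1 (−0.47), Bpgm (−0.34) and Ldhb. Ldhb went from 65.4 and 67.6 to 55.5 and 51.0 RPKM, and its share of the 2 lactate dehydrogenase genes from 18.4% and 19.2% to 11.6% and 11.2%. Of pyruvate entry genes Pdk3 rose (0.50), and of pentose phosphate genes Tkt (0.35) and G6pdx (0.21), with no call lower in either list.

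HIF targets did not move together in liver. Of 23, 5 rose, led by Angptl4 (1.48, 2.12 and 2.16 against 7.66 and 7.88 RPKM), Apln (1.09) and Ankrd37 (0.55), and 6 fell, among them Bnip3 (−0.54) and Vegfa (−0.29, 8.62 and 8.52 against 6.62 and 7.0 RPKM, adjusted p = 0.0114). Of 8 sensing genes 1 passed, Arnt (−0.20), while Hif1a (−0.02), Epas1 (0.07), Egln1 (0.03) and Slc2a1 (0.10) were not called. Proliferation genes rose strongly in the same libraries, 12 of 12 with a median of 1.76 and a summed RPKM of 118 to 120 in Ctrl and 287 to 293 in 2Runx1. Their part in the result was not tested. Macrophage sums were 186 to 192 in Ctrl and 179 to 182 in 2Runx1, and hepatocyte sums 151 to 163 and 150 to 151. Mesenchymal sums went from 72.8 to 73.4 in Ctrl to 33.6 to 38.0 in 2Runx1, with Dcn called lower, and erythroid sums from 35.5 to 37.1 to 21.2 to 23.6, with 2 of 8 called lower. Of 10 endothelial markers Cdh5 and Flt1 were higher and Erg, Kdr and Esam lower. The part of these genes in the result was not tested either.

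The Runx1 effects were then compared between stages through interaction terms in the same fit. The level of Runx1 differed between the stages compared. It was 15.6 RPKM in E9.5 and 26.3 in E13.5 1Runx1, and 23.9 in E13.5 and 78.2 in liver 2Runx1. Strain and mating scheme also differed for 1 copy, and organ and the route of tamoxifen for 2 copies. None of these can be told apart from stage. For 1 added copy, the effect at E13.5 was below that at E9.5 for Egln3 (0.04 against 0.62, difference −0.58 ± 0.11, adjusted p = 0.0331) and Slc2a3 (−0.28 against 0.34, difference −0.62 ± 0.13, adjusted p = 0.0391). That was 0 genes higher and 2 lower of 10, with 2.26% of all genes called (1.16% higher, 1.1% lower). Of 23 HIF targets 1 was lower, Vegfa (−0.61, adjusted p = 0.0279), and 0 higher. Of 20 further glycolytic genes 1 was lower, Slc16a3 (−0.99, adjusted p = 0.0254), and 1 higher, Eno1b (3.88). Of hepatocyte genes 6 of 10 were lower in the same term, of macrophage genes 4 of 9, and of brain endothelial genes 3 of 9 were higher, and their part was not tested. Egln3 passed in 5 and Slc2a3 in 2 of 12 alternative fits, and the count was 0 without either E9.5 Ctrl library, either E9.5 1Runx1 library or E13.5 1Runx1 replicate 1, and 1 without E13.5 1Runx1 replicate 2. The count of all called genes, 284, fell to 39 without E9.5 Ctrl replicate 2, 50 without E9.5 Ctrl replicate 1, 47 without E9.5 1Runx1 replicate 2 and 167 without E9.5 1Runx1 replicate 1, and was 452 without E13.5 1Runx1 replicate 2.

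For 2 added copies, the effect in liver exceeded that at E13.5 for Eno1 (0.62 against 0.13, difference 0.48 ± 0.08, adjusted p = 0.00339) and Ldha (0.53 against 0.06, difference 0.47 ± 0.07, adjusted p = 0.0021). It was lower for Egln3 (−0.23 against 0.26, difference −0.48 ± 0.11, adjusted p = 0.0217), so 2 of 10 genes were higher and 1 lower, with 11.1% of all genes called (8.2% higher, 2.89% lower). Ldha passed in 12 of 12 alternatives, Eno1 in 12 of 13 (adjusted p = 0.0874 with quantile normalization) and Egln3 in 6 of 12. For Slc2a3 the difference was 0.04 (95% interval −0.25 to 0.32). Pklr (0.74), Pgam1 (0.35), Pdk3 (0.59), Angptl4 (1.29) and Apln (1.00) were also higher, and Vegfa (−0.40) lower. In the same term 12 of 12 proliferation genes were higher (median 1.66), as were 4 of 10 hepatocyte, 3 of 8 erythroid and 2 of 9 macrophage genes. Lower were 1 of 10 hepatocyte genes (Trf), 1 of 9 brain endothelial genes (Slc7a5) and 1 of 10 endothelial genes (Erg). The part of these lists was not tested. The interaction terms rest on the single E13.5 Ctrl library.

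Open chromatin was read from pooled ATAC peak lists, 1 for each of the 7 groups, so that peaks have no replicate spread. All 10 genes had at least 1 peak within 10 kb in every list. The genes had 71 and 66 peaks in E9.5 Ctrl and 1Runx1, 57, 60 and 49 in E13.5 Ctrl, 1Runx1 and 2Runx1, and 29 and 28 in liver Ctrl and 2Runx1. The lists themselves held 99298, 96532, 96537, 100268, 80857, 39019 and 39469 peaks in that order, so the 10 genes held between 0.059% and 0.0743% of each. The lower counts in liver thus went with shorter lists.

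**Figure D5:**
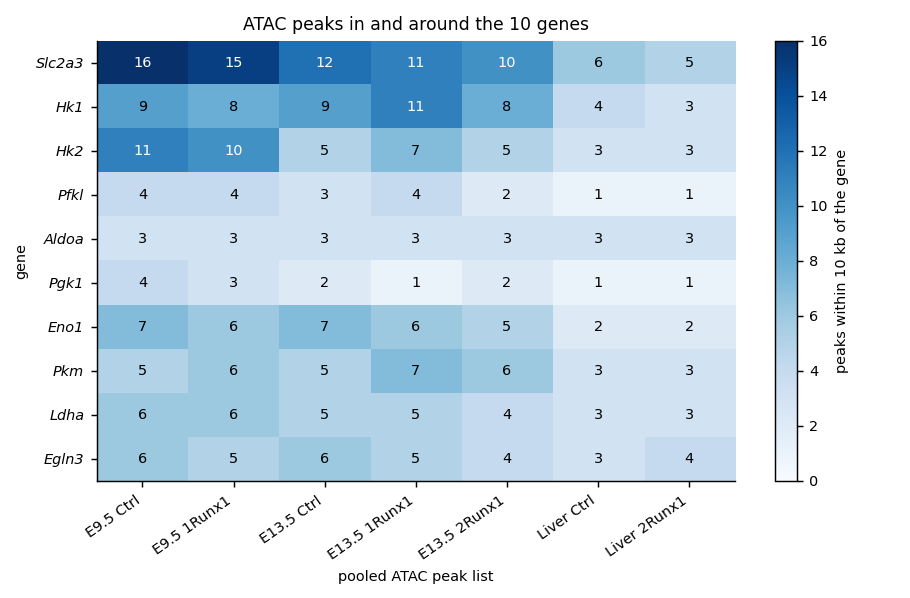
Number of ATAC peaks within 10 kb of each gene (rows) in each pooled list (columns), printed in the cell and shaded on the scale at the right. Slc2a3 has the most peaks in each list or shares that place, from 16 in E9.5 Ctrl to 5 in liver 2Runx1, and Aldoa has 3 in every list.

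Promoter peaks were listed at every stage, also where the RNA differed several-fold. Of the 9 genes with a listed promoter, 8 had 1 in a peak in all 7 lists, where 90.7% and 90.6% of 9852 tested genes did so in the E9.5 Ctrl and 1Runx1 lists, 90.5% to 91.0% in the E13.5 lists and 81.1% and 80.7% in liver Ctrl and 2Runx1. The fold enrichment of a peak is the authors' own value and was used within each list. At the Hk2 promoter printed above it was 18.3 in E9.5 Ctrl, above 92.6% of the peaks of that list, and 21.4 in liver Ctrl, above 97.7% of that list. Hk2 RNA in the same groups was 8.82 ± 0.161 and 0.697 ± 0.0243 RPKM. In liver 2Runx1 the Hk2 promoter peak had fold 13.6, above 87.9% of its list. The first Ldha start lay in peaks above 86.4% to 91.9% of their lists, at fold 15.2 to 17.7. The peaks at Pgk1 had fold 19.3 to 25.0, those at Egln3 11.1 to 14.3, those at Eno1 13.8 to 17.6, and those at Aldoa 10.0 to 16.8.

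Start sites within a gene differed. The outer start of Hk1 (chromosome 10, base 62379908) lay in no peak of any list, and the inner start (base 62340421) in all 7, at fold 15.3 to 19.1. The second starts of Ldha (chromosome 7, base 46847082) and Pkm (chromosome 9, base 59657227) were in a peak in the 5 embryonic lists, at fold 5.89 to 7.26 and 3.86 to 5.18, and in neither liver list. The liver lists were shorter and their promoter peaks weaker. At the first Pkm start −log10 q was 193.6 in E9.5 Ctrl (fold 11.6) and 14.37 in liver Ctrl (fold 7.48). A closed start and a low peak missed in the liver lists therefore cannot be told apart. The listed start of Pfkl was in no peak, and of the 3 Aldoa starts the 2 inner ones were covered in every list and the outer one in none.

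Peaks near the genes were fewer in the Ctrl list of each later stage, and 2 of those lost covered a listed promoter, at the second starts of Pkm and Ldha. Against E9.5 Ctrl, 19 of the 71 peaks (26.8%) had no overlap in E13.5 Ctrl, and 6 of those 19 were at Hk2 and 4 at Slc2a3, while 5 of the 57 E13.5 peaks (8.77%) were absent at E9.5. In whole lists these shares were 24.4% and 22.1%. Against liver Ctrl, 28 of the 57 E13.5 Ctrl peaks (49.1%) had no overlap, against 69.6% in the whole list, with 6 at Slc2a3, 5 each at Hk1 and Eno1 and 2 at Hk2. Over both steps Slc2a3 lost 10 and Hk2 and Eno1 8 each, while Eno1 also gained 3 between E9.5 and E13.5. In E9.5 Ctrl Slc2a3, Hk2 and Eno1 had 16, 11 and 7 peaks. The genes differ in length, from 5761 bases for Aldoa to 111066 for Hk1, so these counts cannot be compared between genes. Of the 29 liver peaks 0 were absent at E13.5, against 20.3%. At Slc2a3, a peak at chr6:122742033-122742862 in E9.5 Ctrl, of fold 9.22, was met by an overlapping peak in the other 4 embryonic lists and in neither liver list. Its neighbour at chr6:122739938-122740358 was in all 7 lists. At Hk1 a peak at chr10:62287581-62288306 in E13.5 Ctrl, of fold 14.9, was likewise in the 5 embryonic lists and in neither liver list. Within Egln3 a peak at chr12:54191836-54192402 in E9.5 Ctrl was in all 7 lists, at fold 12.2 to 16.2. These peaks were picked after their values were seen.

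With added Runx1 the shares of peaks near the 10 genes that came or went were close to those of the whole lists at E9.5 and below them in liver. At E9.5, 8 of the 66 1Runx1 peaks (12.1%) and 12 of the 71 Ctrl peaks (16.9%) had no overlap in the other list, against 15.4% and 17.5% of the whole lists. For 1 copy at E13.5 the counts were 6 (10.0%) and 4 (7.02%), against 15.2% and 12.8%. For 2 copies at E13.5 they were 4 (8.16%) and 11 (19.3%), against 9.67% and 24.0%, and in liver 1 (3.57%) and 3 (10.3%), against 31.0% and 30.2%. These shares are described without a test, since each list pools its replicates. With a minimum −log10 q of 10 the sums of both directions went from 20, 10, 15 and 4 to 1, 1, 4 and 0. None of these peaks covered a listed promoter. A narrow peak in Slc2a3 (chr6:122785008-122785119 in E9.5 Ctrl, fold 6.26, −log10 q 11.9) was listed in both embryonic Ctrl groups and in no Runx1 list, and a peak 5′ of Ldha (chr7:46838161-46838356, fold 3.28) showed the same pattern. Both were picked after their values were seen.

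The H3K4me1 histone mark, found at enhancers and promoter flanks, was listed at E13.5 for Ctrl and 2Runx1. Within 10 kb of the 10 genes there were 38 regions in the Ctrl list of 48795 (0.0779%) and 63 in the 2Runx1 list of 88344 (0.0713%). Egln3 had 8 and 11, Hk1 6 and 13, and Slc2a3 2 and 6, while Pgk1 had 0 and 2. The labels of a 2Runx1 input and a 2Runx1 H3K4me1 library appear exchanged in their descriptions, so these counts are given without a comparison.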

How the data were processed

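RNA was sequenced from 13 libraries in 7 groups, and the authors deposited 1 table of RPKM values per gene. Per the submitters' processing notes the tools included Trim Galore 0.6.4, STAR 2.7.3a, featureCounts and Subread 2.0.0, and the genome builds mm10 and GRCm38; no source used here names the annotation. The library kit named in the labels' protocols does not mark strand, so overlapping genes on opposite strands cannot be told apart. ATAC and H3K4me1 peaks were deposited as 1 pooled list per group, and the notes name Bowtie2 2.3.5.1, SAMtools 1.1 and MACS2 2.1.4. Each deposited peak carried the authors' score, fold enrichment over background and −log10 q.

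RPKM steps gave whole reads for 100% of the 20720 genes above 0, within 0.001 reads, which gave the depth of each library. The 12546 genes with at least 1 RPKM in at least 2 libraries, all 10 described genes among them, were tested with limma 3.58.1 (R 4.3.3) on log2(RPKM + 1). The fit had 1 mean for each of the 7 groups over all 13 libraries and an intensity trend (6 residual and 4.3 prior degrees of freedom), with Benjamini-Hochberg adjustment. The script was tested on simulated data. Peaks were assigned to a gene within 10 kb and matched between lists by an overlap of at least 1 base. Tables were handled in Python 3.11.15 with pandas 2.3.3 and numpy 2.4.6.

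Alternatives were a pseudocount of 0.1, no filter, quantile normalization, limma-voom on recovered reads with trimmed-mean scaling written out in R, the replicate number as a block, fits of only the groups compared, each library left out in turn, a minimum −log10 q of 10 and an overlap of 50%. Adding Eno1b reads to Eno1 was chosen after seeing the data. The 10 genes and the lists were chosen with earlier results of these data known. Beyond the 10 genes, up to 4 called genes of largest difference were named per list, with Slc2a1, Vegfa, Hif1a, Epas1, Egln1 and Eno1b throughout; Gapdh, Tpi1, Pgam1, Ldhb and Pfkp were named after their values were seen. Some called genes of these lists are not reported here.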

Additional observations from a re-analysis of the deposited data

Results flagged for a closer look

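Each of the following 5 results is a Runx1 effect that differed between stages by an interaction term in limma over all genes, with Benjamini-Hochberg adjustment. With 1 added copy, the effect on Egln3 at E13.5 minus that at E9.5 was −0.578 (adjusted p = 0.0331), and Egln3 was higher in both E9.5 1Runx1 libraries than in either Ctrl library. For Slc2a3 the same difference was −0.619 (adjusted p = 0.0391), with both 1Runx1 libraries above Ctrl at E9.5 and both below the single Ctrl library at E13.5.

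With 2 added copies, the effect in liver minus that at E13.5 was 0.484 for Eno1 (adjusted p = 0.00339) and 0.47 for Ldha (adjusted p = 0.0021), and both genes were higher in both liver 2Runx1 libraries. For Egln3 it was −0.483 (adjusted p = 0.0217), with both 2Runx1 libraries above the Ctrl library at E13.5 and both below the Ctrl libraries in liver. All 5 rest on the single E13.5 Ctrl library. Groups of 2 libraries are too small for a test of single outlying libraries.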

How the results depend on the processing

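Over 970 recomputed values of the 10 genes, 888 kept their direction and side of the threshold, 49 lost a call, 4 gained one and 29 changed sign, of which 0 had been called. At E9.5 the count of called genes was 3 with limma-voom and 0 with only the groups compared, in place of 1. For liver 2Runx1 it was 8; it was 7 without the filter (Aldoa lost) and with limma-voom (Egln3 lost), 6 with only the groups compared and with the replicate block (both lost), and 5 to 7 with 1 library left out. Between the E13.5 doses it was 1 without the filter, 1 with Eno1b reads added and 0 with only the groups compared, in place of 2, 2 with quantile normalization but Slc2a3 and Pgk1 in place of Slc2a3 and Eno1, and 1 to 2 with 1 library left out (1 without 1Runx1 replicate 1, 1Runx1 replicate 2 or 2Runx1 replicate 2). For the 1Runx1 interaction it was 0 with a pseudocount of 0.1, 1 without the filter and 0 with only the groups compared, in place of 2, and 0 to 1 with 1 library left out. For the 2Runx1 interaction it was 2 to 3 with 1 library left out. The cause of these changes was not tested, except that fits of fewer groups hold fewer libraries. With a −log10 q of at least 10, list-specific ATAC peaks near the genes numbered 1 at E9.5, 1 and 4 at E13.5 (1Runx1 and 2Runx1) and 0 in liver.

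Differences that changed sign were small. With quantile normalization those at E9.5 were −0.0087 for Pkm, −0.0101 for Aldoa and −0.0385 for Pfkl; those of E13.5 1Runx1 were −0.0176 for Ldha, −0.0425 for Aldoa and −0.0415 for Hk1. Hk1 was at −0.0054 in E13.5 2Runx1 and 0.0362 between the doses, and Slc2a3 at −0.105 in the 2Runx1 interaction. With limma-voom Aldoa was at −0.0069 in E13.5 1Runx1 and Hk1 at 0.0065 between the doses. With 1 library left out, Hk1 ranged from −0.0154 to 0.0462 between E13.5 and E9.5, and Pfkl from −0.0532 to 0.0889 at E9.5. In E13.5 1Runx1 the ranges were −0.0535 to 0.111 for Hk1, −0.0176 to 0.0317 for Aldoa, −0.0382 to 0.0681 for Ldha and −0.0225 to 0.107 for Egln3. Between the doses they were −0.0878 to 0.077 for Hk1, −0.0533 to 0.0057 for Pkm and −0.0078 to 0.0985 for Ldha. In the interactions they were −0.159 to 0.0058 for Hk1 and −0.0192 to 0.123 for Pfkl (1Runx1), and −0.0481 to 0.123 for Slc2a3 (2Runx1).

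Deviations of replicates with the same number correlated weakly (r = −0.061, −0.047 and 0.107 over 12546 genes). Each r rests on a single difference between replicates in each group, so it cannot decide whether the numbers mark a shared litter or day. With the replicate block the 1Runx1 interaction gave 1 called gene in place of 2, and Hk1 between E13.5 and E9.5 was at −0.0229. The share of higher among all called genes moved by over 10 points in other comparisons. At E9.5 it was 72.5%, and 86.5% to 90.2% without 1Runx1 replicate 2 or either Ctrl library. In E13.5 1Runx1 it was 61.2%, against 49.3% with quantile normalization, 46.9% with limma-voom and 50.2% without the filter. In E13.5 2Runx1, with 34 calls, it was 55.9%, against 37.9% with limma-voom, 38.5% with the replicate block, 20.1% without the filter, 77.8% with a pseudocount of 0.1 and 26.1% without 2Runx1 replicate 2. Between the doses it was 40.7%, against 52.1% with quantile normalization and 55.3% with limma-voom. In the 1Runx1 interaction it was 51.4%, against 38.5% with limma-voom, 37.7% without the filter and 40.4% with only the groups compared, and in the 2Runx1 interaction 73.9%, against 63.9% with quantile normalization.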
